A study of Danio rerio with 8 samples.

Results

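The genes described here are the extracellular and cell-surface components of Wnt signaling in sorted *sox10*+ cells of zebrafish embryos. They were chosen by name alone, as every gene called *wnt*, *fzd*, *dkk* or *sfrp* followed by a number, together with *lrp5* and *lrp6*. The rule found 51 gene identifiers among the 32057 in all, comprising 26 *wnt* ligands, 15 receptors (13 *fzd* and 2 *lrp*) and 10 secreted inhibitors (5 *dkk* and 5 *sfrp*). Expression was measured by SMART-seq in 4 groups with 2 libraries each. The groups were *slc30a1a*/*slc30a1b* double-knockout mutants and control siblings at 2 days post-fertilization (2 dpf), and the same genotypes at 2.5 dpf. The *slc30a1* genes encode zinc exporters. All 8 libraries came from cells that fluoresced under the *Tg(sox10:kikGR)* transgene, in which the *sox10* promoter drives the reporter, so they hold whatever cells were labeled at sorting. To obtain mutants for analysis the study intercrossed fish that were heterozygous for *slc30a1a* and already lacked *slc30a1b*, a cross whose control siblings lack *slc30a1b* as well, but the labels give the genotype of these siblings only as "control". Nothing in the labels says that the 2 libraries of a group came from separate pools of embryos, so p-values measure only the spread between these libraries, which may be technical.

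Wnt proteins are secreted, lipid-modified ligands that bind Frizzled receptors. With the co-receptors Lrp5 and Lrp6 they stabilize β-catenin, and with other partners they direct cell polarity and movement. Dkk1 and Dkk2 act on the co-receptors, whereas secreted Frizzled-related proteins (Sfrps) bind the ligands through a domain that resembles that of the receptors. In vertebrate embryos Wnt signals induce the neural crest, influence which crest cells become pigment cells, and later help to pattern the pharyngeal arches and the skeleton of the head.

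Values are FPKM, the number of sequenced fragments scaled for the length of the transcript and the size of the library, so levels can be set side by side between genes. Of the 51 identifiers, 48 were in the table for 2 dpf and all 51 in the table for 2.5 dpf. Averaged over the 4 libraries of a stage, a level of 0.5 FPKM or more was reached by 31 identifiers at 2 dpf (9 ligands, 13 receptors and 9 inhibitors) and by 34 at 2.5 dpf (12 ligands, 13 receptors and 9 inhibitors). The 17 that did not reach it at either stage were 14 ligands, *fzd5*, *fzd9a* and *sfrp2l*, and their highest value in any library was 0.95 FPKM. Among them were *wnt1*, *wnt3a* and *wnt8a*, ligands that act in the early neural tube or the gastrula. The sum of FPKM per library ran between 609836 and 697012, and the 10 most abundant genes took 19.4 to 26.6% of it. The number of reads behind each library is not known from these values.

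Over the 8 libraries *sfrp2* had the highest mean level, at 72.9 FPKM. It was followed by the receptors *fzd7a* (39.4 FPKM), *fzd2* (29.3 FPKM) and *fzd1* (26.4 FPKM) and by *wnt11r*, the only ligand among the 12 highest genes (24.2 FPKM). The next highest were *fzd7b* (19.8 FPKM), *fzd9b* (19.2 FPKM), *fzd8a* (14.4 FPKM), *sfrp1a* (12.9 FPKM), *dkk1b* (10.8 FPKM), *sfrp5* (9.16 FPKM) and *fzd6* (7.83 FPKM). Both co-receptors were low, with mean levels of 1.12 FPKM for *lrp5* and 0.67 FPKM for *lrp6*.

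**Figure D1:**
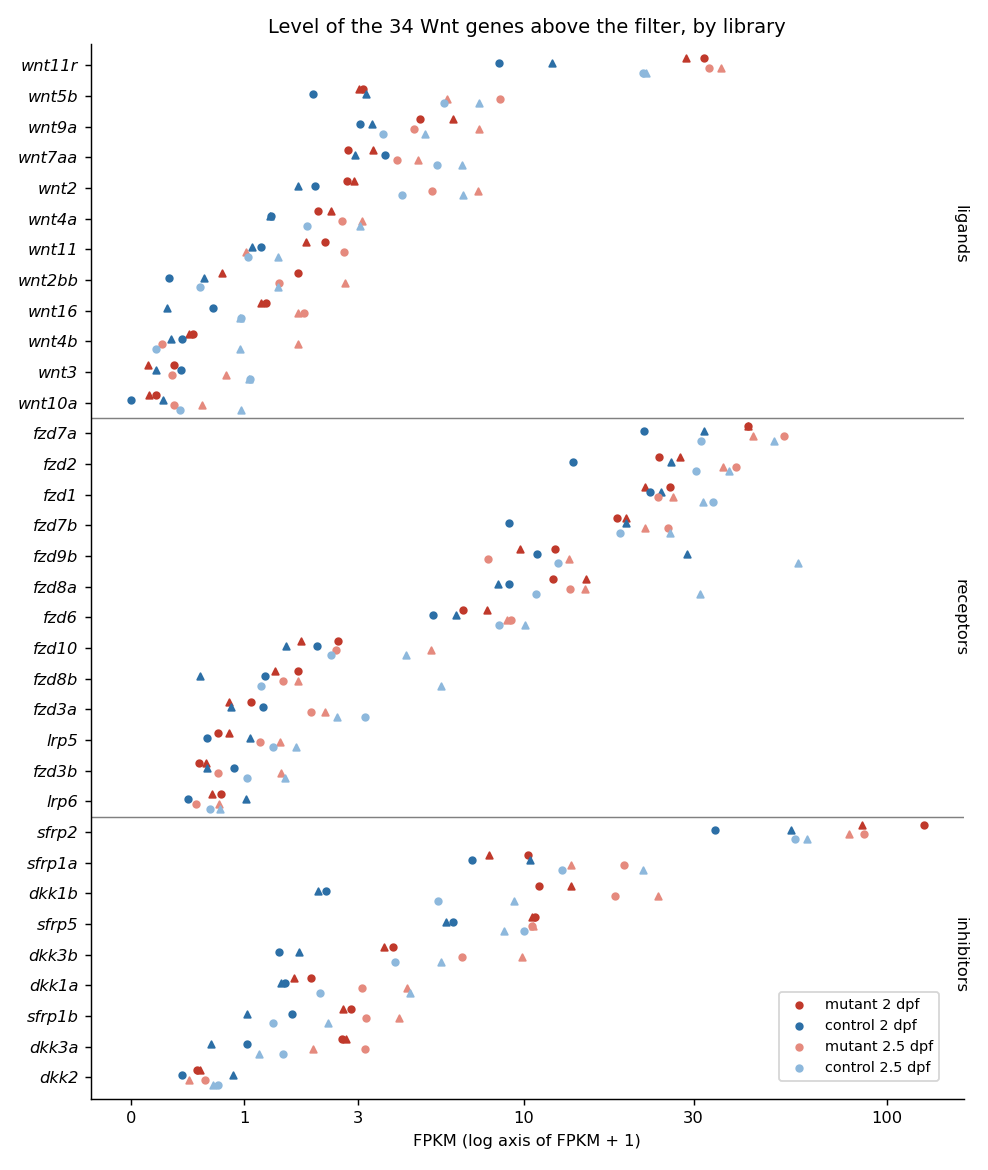
Level of the 34 genes that reached a mean of 0.5 FPKM at a stage, by library, in FPKM on a log axis of FPKM + 1. Circles are replicate 1 and triangles replicate 2 of each group, and genes are ordered by mean level within ligands, receptors and inhibitors. Among the ligands *wnt11r* stood far to the right, and *sfrp2* reached 125 FPKM in mutant replicate 1 at 2 dpf.

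At 2 dpf the inhibitors *dkk1b* and *dkk3a* and the ligand *wnt11r* were called higher in mutants, and none of the 31 genes tested was called lower. The test was limma on log2(FPKM + 1) over all 15453 genes whose mean reached 0.5 FPKM, with a Benjamini-Hochberg adjusted p under 0.05 as threshold. Those 3 calls of 31 stand against 3.52% of all genes called, 2.52% higher and 0.997% lower in mutants. Without the adjustment 14 of the 31 had a p under 0.05, all of them higher in mutants, against 24.6% of all genes (19.3% higher and 5.37% lower). Both mutant libraries lay above both control libraries for 18 of the 31 and below them for 1, against 44.8% and 12.1% of all genes. *wnt16* and *wnt2bb*, which are among the 14 and the 18, reached the filter only through the mutants (control means 0.45 and 0.41 FPKM). The median log2 fold change was 0.47 over the 31 genes and 0.18 over all genes tested, of which 71.9% had a value above 0. When each library was rescaled by the median ratio to the mean library, the median over all genes became -0.00 and that over the Wnt genes 0.25. After this rescaling 8 of 31 Wnt genes had an unadjusted p under 0.05, against 19.3% of all genes. Per class, the medians before rescaling were 0.74 for the inhibitors, 0.52 for the ligands and 0.16 for the receptors.

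At 2.5 dpf limma called none of the 34 Wnt genes tested, nor any of the 17379 genes in the table (0% called), and the lowest adjusted p among the Wnt genes was 0.174, for *dkk1b*. Without the adjustment 6 of the 34 had a p under 0.05, all higher in mutants, against 12.2% of all genes (7.18% higher and 5.06% lower). Both mutant libraries lay above both control libraries for 9 genes and below for 5, against 24.3% and 19.2% of all genes. The median log2 fold change was 0.14, against 0.02 over all genes. It was 0.49 for the inhibitors, 0.24 for the ligands and -0.13 for the receptors. The median over the 34 depended on the control libraries: it was -0.12 without control replicate 1 and 0.36 without control replicate 2.

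When the 8 libraries were fitted together with stage as a term, limma called 7 of 33 Wnt genes, all of them higher in mutants, against 9.01% of all 16703 genes (7.02% higher and 1.99% lower). Without the adjustment 12 of the 33 had a p under 0.05, all higher in mutants, against 25.7% of all genes (19.3% higher and 6.46% lower). The 7 called genes were 5 of 9 inhibitors (*dkk1b*, *dkk3a*, *dkk3b*, *sfrp2* and *sfrp1b*), 2 of 11 ligands (*wnt11r* and *wnt16*) and 0 of 13 receptors. This fit uses the same libraries as the fits within a stage. For 9 genes both mutant libraries lay above both controls at each stage, and for 0 genes below, against 17.4% and 5.21% of all genes. The 9 were the 7 called genes with *sfrp5* and *wnt2bb*. Leaving out 1 library at a time, the number called ran between 2 and 8, with 2 of 33 without mutant replicate 1 or without mutant replicate 2 of 2 dpf, and *dkk1b* and *wnt11r* were called in each of these fits.

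**Figure D2:**
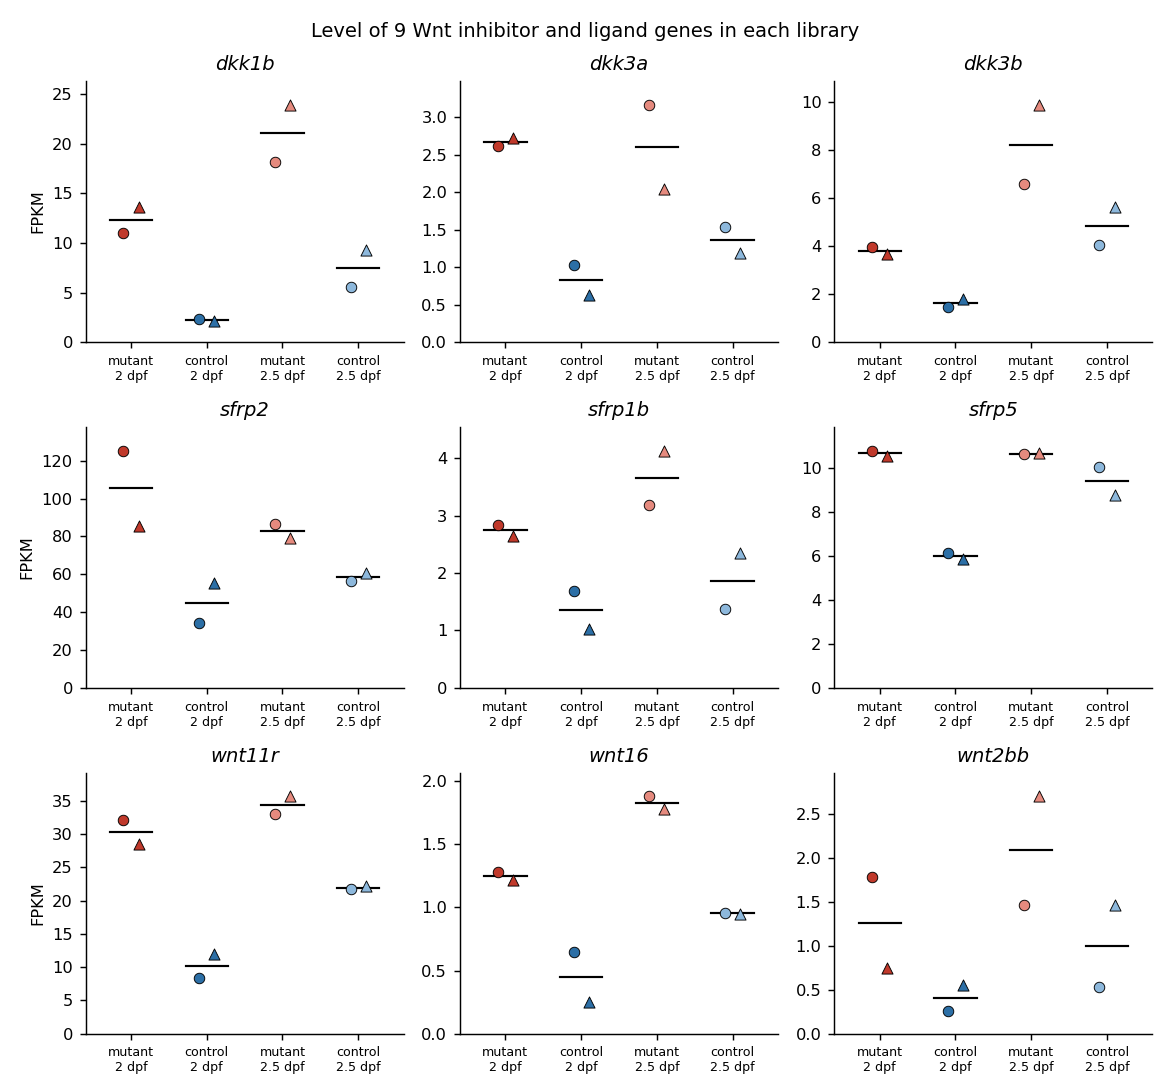
Level in each library, in FPKM, of the 9 genes whose mutant libraries lay above their control libraries at both stages. Circles are replicate 1, triangles replicate 2 and bars the mean of the 2 libraries. *dkk1b* showed the widest separation at 2 dpf, with 11.04 and 13.63 FPKM in mutants against 2.29 and 2.14 FPKM in controls.

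Among the inhibitors *dkk1b* had the largest change. It is a zebrafish counterpart of Dkk1, the Lrp5/6 antagonist that is needed to form the head in the mouse (ENSDARG00000045219). At 2 dpf it had 11.04 and 13.63 FPKM in mutants, against 2.29 and 2.14 FPKM in controls. At 2.5 dpf it had 18.18 and 23.94 FPKM in mutants, against 5.52 and 9.34 FPKM in controls. The groups did not overlap at either stage, and the ratio of mutant to control means was 5.57 at 2 dpf and 2.83 at 2.5 dpf. The log2 fold change was 2.05 ± 0.19 at 2 dpf (SE, limma adjusted p = 0.00676) and 1.41 ± 0.29 at 2.5 dpf (limma adjusted p = 0.174). Over both stages it was 1.73 ± 0.20 (limma adjusted p = 0.00199), and it stayed called under all 15 alternatives tried for that fit. At 2 dpf the call was lost without control replicate 1 (limma adjusted p = 0.131) and without control replicate 2 (limma adjusted p = 0.102). In these fits 0 of all genes were called. At an unadjusted p under 0.05 there were 12 of 31 Wnt genes, against 19.9% of all genes, in the first and 10 of 30, against 20.8%, in the second. Under median-ratio rescaling the log2 fold change at 2 dpf was 1.85 (limma adjusted p = 0.0116). At 2.5 dpf it was called when the replicate number was a block (limma adjusted p = 0.00903) and when all 8 libraries shared 1 estimate of spread (limma adjusted p = 0.0448).

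Its paralog *dkk1a* was less abundant and did not pass the test in any comparison. *dkk1a* had 2.00 and 1.71 FPKM in mutants at 2 dpf, against 1.57 and 1.5 FPKM in controls, and 3.11 and 4.39 FPKM in mutants at 2.5 dpf, against 2.17 and 4.49 FPKM in controls. The ratio of *dkk1b* to *dkk1a* within a library, which does not depend on the scaling between libraries, was 5.52 and 7.97 in mutants and 1.46 and 1.43 in controls at 2 dpf. At 2.5 dpf it was 5.85 and 5.45 in mutants and 2.54 and 2.08 in controls. All 4 mutant libraries thus lay above all 4 control libraries. Of the summed FPKM of the 5 *dkk* genes, *dkk1b* took 54.9 and 61.2% in mutants and 34 and 30.9% in controls at 2 dpf, and 57.5 and 58.8% in mutants and 39.5 and 43.8% in controls at 2.5 dpf.

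The paralogs *dkk3a* and *dkk3b* encode divergent Dickkopf proteins whose link to Wnt signaling is less direct than that of Dkk1. *dkk3a* (ENSDARG00000103591) had 2.62 and 2.72 FPKM in mutants at 2 dpf, against 1.03 and 0.63 FPKM in controls. The 2.5 dpf values were 3.17 and 2.05 FPKM in mutants, against 1.54 and 1.19 FPKM in controls. Every mutant library was above every control library, at a level a few-fold lower than that of *dkk1b*. For *dkk3a* the log2 fold change was 1.01 ± 0.18 at 2 dpf (limma adjusted p = 0.0402), 0.60 ± 0.23 at 2.5 dpf (adjusted p = 0.391) and 0.80 ± 0.16 over both stages (adjusted p = 0.0163). The call at 2 dpf held in 2 of the 11 alternatives in which it was tested, with no variance trend and with the replicate block (limma adjusted p between 0.0395 and 0.181 over the 11). It was lost under median-ratio rescaling (log2 fold change 0.87, limma adjusted p = 0.0756) and without any 1 of the 4 libraries, among others.

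*dkk3b* (ENSDARG00000070683) had 3.94 and 3.68 FPKM in mutants at 2 dpf, against 1.47 and 1.79 FPKM in controls, and 6.56 and 9.87 FPKM in mutants at 2.5 dpf, against 4.03 and 5.63 FPKM in controls. Within each stage the genotypes were apart, while the controls of 2.5 dpf lay above the mutants of 2 dpf. On the log2 scale *dkk3b* differed by 0.87 ± 0.17 at 2 dpf (limma adjusted p = 0.0517), 0.65 ± 0.27 at 2.5 dpf (adjusted p = 0.412) and 0.76 ± 0.16 over both stages (adjusted p = 0.0211). The fifth gene of the family, *dkk2*, stayed between 0.37 and 0.87 FPKM in the 8 libraries.

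Of the secreted Frizzled-related genes, *sfrp2* (ENSDARG00000070050) was the most abundant. At 2 dpf it had 125.34 and 85.46 FPKM in mutants, against 34.32 and 55.28 FPKM in controls. At 2.5 dpf it had 86.40 and 78.99 FPKM in mutants, against 56.53 and 60.75 FPKM in controls. The 2 libraries of each group at 2 dpf differed widely, but the genotypes did not overlap. For *sfrp2* the log2 fold change was 1.23 ± 0.29 at 2 dpf (limma adjusted p = 0.0741), 0.49 ± 0.16 at 2.5 dpf (adjusted p = 0.334) and 0.86 ± 0.21 over both stages (adjusted p = 0.0399). The call over both stages held in 4 of 15 alternatives. It was lost under median-ratio rescaling (limma adjusted p = 0.0657), with the replicate number as a block (limma adjusted p = 0.057) and without each library in turn other than control replicate 2 of 2.5 dpf (highest limma adjusted p = 0.0971, without mutant replicate 1 of 2 dpf). *sfrp2* made up 84.0 and 80.2% of the summed *sfrp* FPKM in mutants at 2 dpf, against 69.8 and 76.2% in controls.

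*sfrp1b* (ENSDARG00000057678) was a low-level gene with the same arrangement of libraries. It had 2.84 and 2.65 FPKM in mutants at 2 dpf, against 1.68 and 1.03 FPKM in controls, and 3.19 and 4.13 FPKM in mutants at 2.5 dpf, against 1.38 and 2.34 FPKM in controls. On the log2 scale the change was 0.68 ± 0.20 at 2 dpf (limma adjusted p = 0.108), 0.72 ± 0.25 at 2.5 dpf (adjusted p = 0.345) and 0.70 ± 0.15 over both stages (adjusted p = 0.0266). The paralog *sfrp1a*, which was several-fold more abundant, showed no such separation. *sfrp1a* had 10.30 and 7.89 FPKM in mutants at 2 dpf, against 7 and 10.41 FPKM in controls, and 19.21 and 13.70 FPKM in mutants at 2.5 dpf, against 12.87 and 21.80 FPKM in controls. Its genotypes overlapped at both stages.

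*sfrp5* (ENSDARG00000039041) had nearly the same level in all 4 mutant libraries. At 2 dpf it had 10.77 and 10.54 FPKM in mutants, against 6.13 and 5.83 FPKM in controls. The values at 2.5 dpf were 10.60 and 10.67 FPKM in mutants, against 10.01 and 8.74 FPKM in controls. The gap between genotypes was wide at 2 dpf and narrow at 2.5 dpf, and it did not pass the test at either (log2 fold change 0.74 ± 0.17, limma adjusted p = 0.0696, and 0.17 ± 0.18, limma adjusted p = 0.773) or over both stages (0.45 ± 0.14, limma adjusted p = 0.0843).

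The calls over both stages for *dkk3a*, *dkk3b* and *sfrp1b* depended on single libraries. Those of *dkk3b* and *sfrp1b* were lost without mutant replicate 1 (limma adjusted p = 0.0753 for *dkk3b* and 0.0823 for *sfrp1b*) or mutant replicate 2 of 2 dpf (0.0659 and 0.0695), without mutant replicate 2 of 2.5 dpf (0.0578 and 0.071) and without control replicate 1 of 2.5 dpf (0.059 and 0.0664). Without control replicate 1 of 2 dpf *dkk3b* was lost (limma adjusted p = 0.0746) and so was *dkk3a* (0.0504), and without control replicate 2 of 2 dpf *sfrp1b* was lost (0.0676). *dkk3a* was also lost without mutant replicate 1 (limma adjusted p = 0.0585) or mutant replicate 2 (0.0565) of 2 dpf. The direction was the same in each of these fits.

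Among the ligands, *wnt11r* was both the most abundant and the only one called at 2 dpf. Both mutant libraries lay above both controls for 7 of 9 ligands at that stage, against 44.8% of all genes. Among the 7, *wnt16* and *wnt2bb* had control means of 0.45 and 0.41 FPKM, below the filter. They were tested at 2 dpf only through the mutants. Wnt11-type ligands act mainly outside the β-catenin route, and in zebrafish *wnt11r* takes part with *wnt4a* in shaping the pharyngeal pouches that separate the arches. The files list it under ENSDARG00000014796, which the reference names WNT11, while the gene listed as *wnt11* (ENSDARG00000004256) is named wnt11f2 there. At 2 dpf *wnt11r* had 32.11 and 28.54 FPKM in mutants, against 8.43 and 12.03 FPKM in controls. At 2.5 dpf it had 32.98 and 35.65 FPKM in mutants, against 21.72 and 22.17 FPKM in controls. The mutant level was similar at both stages and every control library was below it. The log2 fold change was 1.5 ± 0.21 at 2 dpf (SE, limma adjusted p = 0.0252), 0.62 ± 0.17 at 2.5 dpf (adjusted p = 0.261) and 1.06 ± 0.19 over both stages (adjusted p = 0.0140). Over both stages the call held under all 15 alternatives, with limma adjusted p between 0.0142 and 0.0479. Under median-ratio rescaling the log2 fold change at 2 dpf was 1.27 (limma adjusted p = 0.0439). The call at 2 dpf was lost under quantile normalization (limma adjusted p = 0.0546), with no filter on low values (limma adjusted p = 0.0866) and without any 1 of the 4 libraries (limma adjusted p between 0.0642 and 0.148). Of the summed *wnt* FPKM, *wnt11r* took 57.4 and 54.6% in mutants at 2 dpf, against 33.4 and 42.7% in controls, and 49.5 and 47.2% in mutants at 2.5 dpf, against 44.8 and 36.5% in controls.

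*wnt16* (ENSDARG00000094973), a ligand required in the zebrafish somite for the specification of blood stem cells, was near the low end of the range. It had 1.28 and 1.22 FPKM in mutants at 2 dpf, against 0.65 and 0.25 FPKM in controls, and 1.88 and 1.78 FPKM in mutants at 2.5 dpf, against 0.96 and 0.95 FPKM in controls. All 4 mutant libraries lay above all 4 control libraries. The log2 fold change, which the added 1 FPKM makes smaller for so low a gene, was 0.65 ± 0.18 at 2 dpf (limma adjusted p = 0.1005), 0.53 ± 0.17 at 2.5 dpf (adjusted p = 0.317) and 0.59 ± 0.11 over both stages (adjusted p = 0.0166). The call over both stages was lost without mutant replicate 1 (limma adjusted p = 0.0604) or mutant replicate 2 of 2 dpf (limma adjusted p = 0.0534).

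*wnt2bb* (ENSDARG00000032234), which acts in liver specification in zebrafish, had 1.78 and 0.75 FPKM in mutants at 2 dpf, against 0.26 and 0.56 FPKM in controls, and 1.47 and 2.70 FPKM in mutants at 2.5 dpf, against 0.53 and 1.46 FPKM in controls. At 2.5 dpf the lower mutant and the higher control library were almost equal. The difference did not pass the test over both stages (log2 fold change 0.65 ± 0.22, limma adjusted p = 0.0991), except with the replicate number as a block (limma adjusted p = 0.045).

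Other ligands above the filter at 2 dpf were *wnt9a*, *wnt2*, *wnt4a* and *wnt11*, whose mutant libraries all lay above their controls at that stage and overlapped them at 2.5 dpf, and *wnt5b* and *wnt7aa*, whose genotypes overlapped at 2 dpf. *wnt4a* had 2.13 and 2.39 FPKM in mutants at 2 dpf, against 1.35 and 1.34 FPKM in controls, and did not pass the test (limma adjusted p = 0.146). *wnt5b*, a ligand for cell movement and cartilage shape in zebrafish, had 3.12 and 3.02 FPKM in mutants at 2 dpf, against 2.04 and 3.19 FPKM in controls. *wnt7aa* was the one ligand tested at both stages with both mutant libraries below both controls at 2.5 dpf, at 4.08 and 4.78 FPKM in mutants against 5.47 and 6.53 FPKM in controls, and it did not pass the test. The 3 ligands that reached the filter only at 2.5 dpf, *wnt3*, *wnt4b* and *wnt10a*, stayed between 0.17 and 1.78 FPKM at that stage.

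**Figure D3:**
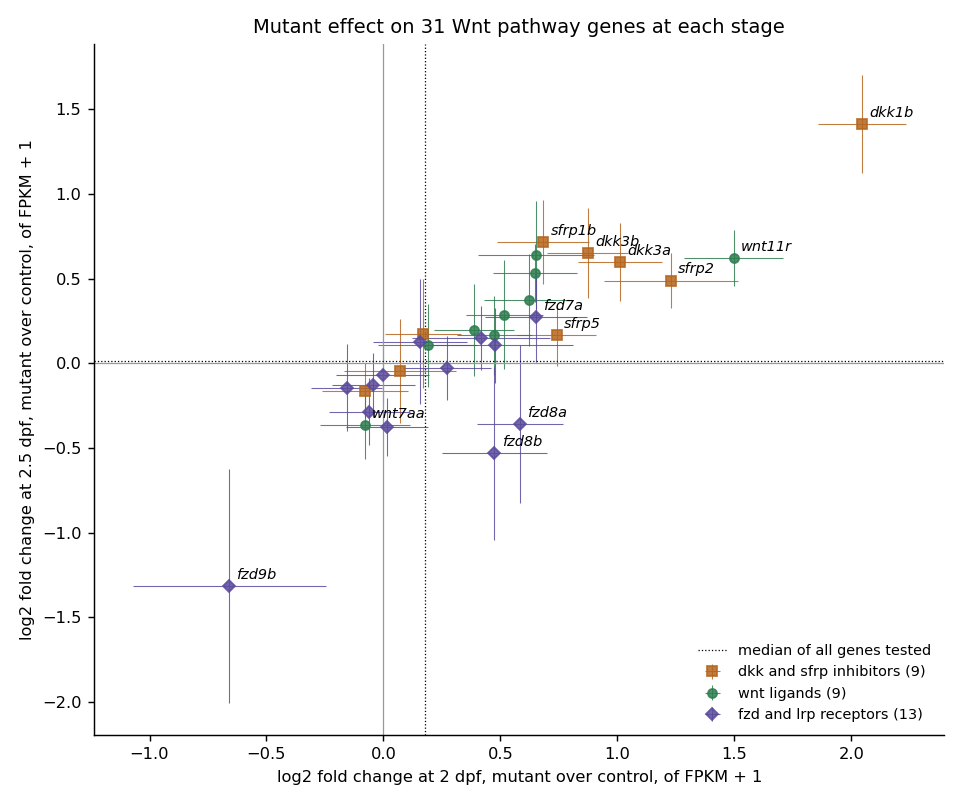
Log2 fold change of FPKM + 1, mutant over control, at 2 dpf (horizontal axis) and 2.5 dpf (vertical axis) for the 31 genes above the filter at both stages. Lines through a point are 1 SE along each axis and dotted lines mark the median over all genes tested, 0.18 at 2 dpf and 0.02 at 2.5 dpf. *dkk1b* (2.05 and 1.41) stands alone at the upper right, *wnt11r* lies at 1.5 and 0.62, and *fzd9b* lies lowest on both axes.

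No receptor passed limma's test in any comparison, and 2 of 13 had an unadjusted p under 0.05 at 2 dpf, 0 of 13 at 2.5 dpf and 1 of 13 over both stages. The shares over all genes were 24.6% at 2 dpf, 12.2% at 2.5 dpf and 25.7% over both stages. Frizzled proteins are the membrane receptors that bind Wnts directly, and *fzd7a* was the most abundant of them. It had 42.16 and 42.23 FPKM in mutants at 2 dpf, against 21.84 and 32.10 FPKM in controls, and 52.83 and 43.44 FPKM in mutants at 2.5 dpf, against 31.34 and 49.64 FPKM in controls. The genotypes were apart at 2 dpf and overlapped at 2.5 dpf. The log2 fold change of *fzd7a* was 0.65 ± 0.22 at 2 dpf (limma adjusted p = 0.142) and 0.46 ± 0.19 over both stages (limma adjusted p = 0.158), and it passed the test over both stages only without control replicate 2 of 2.5 dpf (limma adjusted p = 0.0485). The paralog *fzd7b* had 18.45 and 19.52 FPKM in mutants at 2 dpf, against 9.03 and 19.52 FPKM in controls, and 25.45 and 22.11 FPKM in mutants at 2.5 dpf, against 18.73 and 25.76 FPKM in controls. Across the 8 libraries the ratio of *fzd7a* to *fzd7b* ran only between 1.64 and 2.42.

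*fzd2* had 24.15 and 27.45 FPKM in mutants at 2 dpf, against 13.85 and 26.06 FPKM in controls, and 39.22 and 36.01 FPKM in mutants at 2.5 dpf, against 30.42 and 37.46 FPKM in controls. For *fzd2* and *fzd7b* alike, control replicate 1 of 2 dpf was the lowest library and the other control lay among the mutants. *fzd1* had 25.79 and 22.03 FPKM in mutants at 2 dpf, against 22.77 and 24.41 FPKM in controls, and 23.91 and 26.25 FPKM in mutants at 2.5 dpf, against 33.88 and 31.80 FPKM in controls. Its mutants were the lower group at 2.5 dpf, and over both stages its log2 fold change was -0.18 ± 0.12 (limma adjusted p = 0.407). *fzd6*, a receptor linked to planar cell polarity in the mouse, had 6.60 and 7.80 FPKM in mutants at 2 dpf, against 5.32 and 6.26 FPKM in controls, and 9.16 and 8.93 FPKM in mutants at 2.5 dpf, against 8.44 and 10.10 FPKM in controls. Of the other receptors, *fzd10*, *fzd3a*, *fzd3b*, *lrp5* and *lrp6* ran between 0.42 and 5.24 FPKM with no call.

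The receptors *fzd9b*, *fzd8a* and *fzd8b* each had 1 control library of 2.5 dpf far above the others of that stage. *fzd9b*, which with *wnt9a* acts in zebrafish blood stem cell development, had 12.29 and 9.72 FPKM in mutants at 2 dpf, against 10.93 and 28.80 FPKM in controls, and 7.83 and 13.49 FPKM in mutants at 2.5 dpf, against 12.55 and 57.61 FPKM in controls. *fzd8a* had 12.18 and 15.05 FPKM in mutants at 2 dpf, against 9.05 and 8.38 FPKM in controls, and 13.61 and 14.94 FPKM in mutants at 2.5 dpf, against 10.87 and 31.20 FPKM in controls. *fzd8b* had 1.53 and 1.78 FPKM in mutants at 2.5 dpf, against 1.21 and 5.65 FPKM in controls. For all 3 genes control replicate 2 of 2.5 dpf was the highest of the 8 libraries, while control replicate 1 of that stage was near the mutants. The log2 fold change of *fzd9b* over both stages was -0.99 ± 0.46 (limma adjusted p = 0.219), and it was -0.50 without control replicate 2 of 2.5 dpf. The latter fit still held control replicate 2 of 2 dpf, which was also high for *fzd9b* (28.80 FPKM). The summed level of 10 cartilage markers, among them *col2a1a* and *matn1*, was also highest in control replicate 2 of 2.5 dpf. It was 45.48 and 54.65 FPKM in mutants against 73.70 and 235.91 FPKM in controls at that stage. *matn1*, a cartilage matrix gene, had 0.22 and 3.19 FPKM in mutants at that stage, against 2.93 and 59.73 FPKM in controls. At 2 dpf the 10 markers summed to 31.85 and 38.14 FPKM in mutants, against 35.70 and 65.13 FPKM in controls. Both mutant libraries were below both controls for 4 of 6 cartilage markers tested at 2 dpf and 7 of 9 at 2.5 dpf. The shares over all genes were 12.1% at 2 dpf and 19.2% at 2.5 dpf. Some of the counted markers had mutant means below the filter of 0.5 FPKM. They were *matn1* at 2 dpf (0.19 and 0.25 FPKM in mutants), and *acanb* (0.07 and 0.02 FPKM) and *ucmab* (0 and 0.6 FPKM) at 2.5 dpf. These were tested only through their controls, which tied their direction to their entry. Cartilage was not alone in being highest in control replicate 2 of 2.5 dpf. That library was also the highest of the 8 in the summed markers of skin, otic cells, retina, neurons, neural crest, and melanophores and glia. For skin the sums were 518 and 561 FPKM in mutants at that stage, against 296 and 1005 FPKM in controls. The part of cartilage or of any of these cell types in the levels of the 3 receptors was not tested. In such bulk libraries fewer cells of a type and less RNA per cell cannot be told apart.

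**Figure D4:**
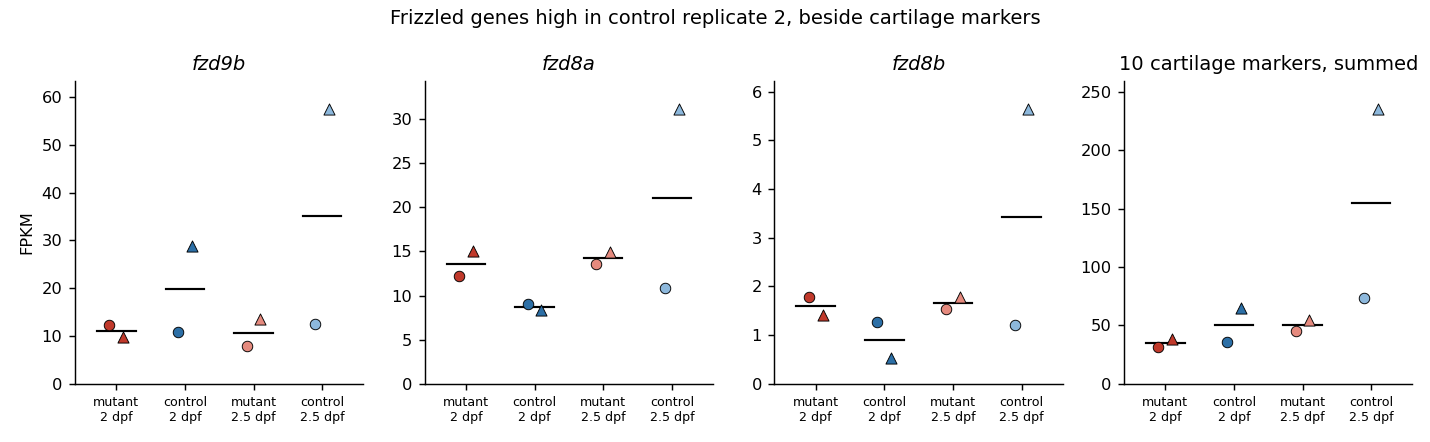
Level of *fzd9b*, *fzd8a* and *fzd8b* and summed level of 10 cartilage markers, in FPKM, in each library. Circles are replicate 1, triangles replicate 2 and bars group means. Control replicate 2 of 2.5 dpf was the highest library in all 4 panels, with 57.61 FPKM for *fzd9b* and 235.91 FPKM for the markers.

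Summed over each class, the inhibitors reached 169.39 and 128.82 FPKM in mutants at 2 dpf, against 55.89 and 79.50 FPKM in controls, and 151.03 and 148.27 FPKM in mutants at 2.5 dpf, against 94.75 and 115.01 FPKM in controls. The ligands summed to 55.94 and 52.29 FPKM in mutants at 2 dpf, against 25.24 and 28.19 FPKM in controls, and 66.68 and 75.53 FPKM in mutants at 2.5 dpf, against 48.53 and 60.75 FPKM in controls. In both classes the genotypes did not overlap at either stage, and *sfrp2* and *wnt11r* were the largest parts of their sums. Without *wnt11r* the ligands at 2.5 dpf overlapped, at 33.7 and 39.88 FPKM in mutants against 26.81 and 38.58 FPKM in controls. At 2 dpf they were still apart, at 23.83 and 23.75 FPKM against 16.81 and 16.16 FPKM. The *sfrp* genes without *sfrp2* overlapped at 2.5 dpf as well, at 33.04 and 28.6 FPKM in mutants against 24.26 and 32.96 FPKM in controls. These sums were not rescaled. The receptors summed to 149.39 and 150.20 FPKM in mutants at 2 dpf, against 99.57 and 151.57 FPKM in controls, and 181.05 and 178.94 FPKM in mutants at 2.5 dpf, against 156.71 and 261.09 FPKM in controls, which overlapped at both stages.

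The mutant effect on *wnt11r* was smaller at 2.5 dpf than at 2 dpf by 0.88 on the log2 scale, a difference that did not pass the test (-0.88 ± 0.27, limma adjusted p = 0.834). For *sfrp2* the difference between stages was -0.74, for *dkk1b* -0.63 and for *sfrp5* -0.57, and limma called none of 33 Wnt genes and none of 16703 genes (0% called). Without the adjustment 2 Wnt genes had a p under 0.05, *wnt11r* and *sfrp5*, both with a negative difference, against 5.4% of all genes (1.65% positive and 3.75% negative). The 2 stages are in separate tables, so levels were set side by side between them with no test. In 10 of 33 genes all 4 libraries of 2.5 dpf lay above all 4 of 2 dpf (*wnt2*, *wnt5b*, *wnt7aa*, *fzd2*, *fzd3a*, *fzd6*, *lrp5*, *sfrp1a*, *dkk1a* and *dkk3b*) and in 0 below, against 32.3% and 2.26% of all genes. After median-ratio rescaling 3 of 32 remained (*wnt2*, *wnt5b* and *fzd3a*), against 11.9% of all genes above and 11% below. *wnt2*, for example, had 5.28 and 7.31 FPKM in mutants and 4.22 and 6.61 FPKM in controls at 2.5 dpf, and 2.74 and 2.91 FPKM in mutants and 2.08 and 1.78 FPKM in controls at 2 dpf.

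Other genes of the pathway were taken from 6 lists. Of 16 secreted modulators outside the name rule, limma called 2 higher in mutants (*rspo1* and *ndp*) and 2 lower (*frzb* and *sostdc1a*) over both stages. Of all genes 7.02% were called higher and 1.99% lower. *rspo1* encodes an R-spondin, which keeps Frizzled receptors at the cell surface. It had 4.13 and 2.89 FPKM in mutants at 2 dpf, against 0.12 and 0.05 FPKM in controls, and 2.61 and 3.6 FPKM in mutants at 2.5 dpf, against 0.36 and 0.26 FPKM in controls. Its log2 fold change over both stages was 1.84 (limma adjusted p = 3e-04), with all 4 mutant libraries above the controls. All its control libraries were below the filter of 0.5 FPKM. It was thus tested only through its level in mutants, which tied its direction to its entry. *ndp*, which encodes Norrin, a Frizzled ligand that is not a Wnt, had 1.87 and 2.65 FPKM in mutants at 2 dpf, against 0.76 and 0.60 FPKM in controls, and 3.69 and 4.61 FPKM in mutants at 2.5 dpf, against 2.82 and 2.01 FPKM in controls. Its log2 fold change over both stages was 0.77 (limma adjusted p = 0.0165), and the call was lost without control replicate 1 of 2 dpf (limma adjusted p = 0.0578). At 2 dpf *rspo1* and *ndp* were the only ones of 15 secreted modulators called, both higher in mutants, as were 2.52% of all genes. The 2 dpf call of *ndp* was at the threshold (limma adjusted p = 0.0494) and held in 1 of the 11 alternatives in which it was tested, with the replicate block, the adjusted p reaching 0.185 without control replicate 1.

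*frzb*, a gene for a secreted Frizzled-related inhibitor of Wnts, fell over both stages, whereas *sfrp2* and *sfrp1b* rose. It had 0.31 and 0.10 FPKM in mutants at 2 dpf, against 1.00 and 1.79 FPKM in controls, and 0.84 and 0.54 FPKM in mutants at 2.5 dpf, against 2.85 and 2.70 FPKM in controls. Both mutant libraries of 2 dpf were below the filter of 0.5 FPKM, so at that stage it was tested through its controls. Its mean over the mutant libraries of both stages was below the filter too. In the fit over both stages it was thus also tested only through its controls, which tied its direction to its entry. Over both stages the log2 fold change was -1.07 (limma adjusted p = 0.00327), and it was called under all 14 alternatives. *sostdc1a*, a gene for a secreted antagonist of Lrp5/6 and BMP ligands, had 2.32 and 3 FPKM in mutants at 2 dpf, against 4.31 and 6.81 FPKM in controls, and 6.21 and 7.89 FPKM in mutants at 2.5 dpf, against 9.29 and 15.00 FPKM in controls. Its log2 fold change over both stages was -0.75 (limma adjusted p = 0.0416), and the call was lost without any 1 library other than control replicate 1 of 2.5 dpf (limma adjusted p between 0.0619 and 0.125).

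Of 6 genes for export and processing of Wnts, limma called 1 higher in mutants over both stages and none lower, against 7.02% and 1.99% of all genes. This was *trabd2b*, a counterpart of Tiki2, a membrane protease that inactivates Wnts in *Xenopus*, with 11 and 9.31 FPKM in mutants at 2 dpf, against 4.41 and 6.33 FPKM in controls, and 9.86 and 13.45 FPKM in mutants at 2.5 dpf, against 5.82 and 6.21 FPKM in controls. Over both stages its log2 fold change was 0.83 (limma adjusted p = 0.0126). *wls*, whose product carries Wnts to the cell surface, had 45.17 and 43.52 FPKM in mutants at 2 dpf, against 21.28 and 29.36 FPKM in controls, and 41.65 and 53.40 FPKM in mutants at 2.5 dpf, against 31.66 and 41.64 FPKM in controls, which missed the threshold over both stages (limma adjusted p = 0.0609). *notum1a*, whose product strips the lipid from Wnts, was not called either, with 2.94 and 2.30 FPKM in mutants at 2 dpf, against 0.82 and 1.2 FPKM in controls, and 2.04 and 5.54 FPKM in mutants at 2.5 dpf, against 1.45 and 3.15 FPKM in controls. Of the 6, 5 had a log2 fold change above 0 over both stages, against 63.4% of all genes. That of *porcn* was -0.45 (limma adjusted p = 0.184). At 2 dpf *porcn* had 1.26 and 1.13 FPKM in mutants, against 1.61 and 0.98 FPKM in controls. At 2.5 dpf it had 0.98 and 1.1 FPKM in mutants, against 2.14 and 3.26 FPKM in controls.

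The remaining lists had no called gene in any comparison. Limma called 0 of 23 cytoplasmic and nuclear transducers, 0 of 11 planar polarity genes and 0 of 12 feedback targets of β-catenin over both stages, and 0 of 13 co-receptors and other membrane modulators. At an unadjusted p under 0.05 there were 0 transducers, 3 planar polarity genes (2 higher), 3 feedback targets (2 higher) and 5 membrane modulators (all higher). Of all genes 25.7% had such a p over both stages, 19.3% higher and 6.46% lower in mutants. The median log2 fold changes over both stages were -0.13 for the transducers, -0.08 for the planar polarity genes, 0.12 for the feedback targets and 0.28 for the membrane modulators, against 0.09 for all genes. The 3 largest fold changes of each list over both stages were as follows, none of them called.

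Among the membrane modulators these were *gpc4*, *kremen1* and *ptk7a*. *gpc4*, a glypican gene that zebrafish need for cell movements in gastrulation, had 16.02 and 14.81 FPKM in mutants at 2 dpf, against 7.04 and 12.69 FPKM in controls, and 18.26 and 27.06 FPKM in mutants at 2.5 dpf, against 11.35 and 17.67 FPKM in controls. *kremen1*, a gene for a Dkk receptor, had 5.36 and 3.52 FPKM in mutants at 2 dpf, against 2.68 and 2.75 FPKM in controls, and 5.94 and 5.51 FPKM in mutants at 2.5 dpf, against 4.04 and 5.46 FPKM in controls. *ptk7a*, which encodes a co-receptor of the polarity route, had 5.67 and 4.58 FPKM in mutants at 2 dpf, against 2.06 and 4.44 FPKM in controls, and 16.34 and 16.10 FPKM in mutants at 2.5 dpf, against 13.53 and 16.81 FPKM in controls. The mutants of *gpc4* and *kremen1* lay above the controls at each stage, while those of *ptk7a* did so at 2 dpf alone.

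Among the transducers they were *amer2*, *apc2* and *ctnnbip1*. *amer2*, whose product brings Apc to the membrane, had 4.72 and 5.06 FPKM in mutants at 2 dpf, against 7.30 and 5.48 FPKM in controls, and 4.29 and 6.15 FPKM in mutants at 2.5 dpf, against 5.68 and 9.61 FPKM in controls. *apc2*, a paralog of the scaffold gene *apc*, had 3.42 and 2.27 FPKM in mutants at 2 dpf, against 4.06 and 2.02 FPKM in controls, and 8.14 and 5.55 FPKM in mutants at 2.5 dpf, against 9.98 and 12.41 FPKM in controls. *ctnnbip1*, which encodes an inhibitor of β-catenin, had 55.37 and 54.99 FPKM in mutants at 2 dpf, against 68.74 and 45.75 FPKM in controls, and 67.39 and 45.68 FPKM in mutants at 2.5 dpf, against 74.33 and 81.52 FPKM in controls. None of these 3 had the genotypes apart at both stages.

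Among the planar polarity genes they were *prickle3*, *prickle1a* and *daam1a*. *prickle3*, a gene of the polarity core, had 0.90 and 1.04 FPKM in mutants at 2 dpf, against 0.29 and 0.39 FPKM in controls, and 1.23 and 1.19 FPKM in mutants at 2.5 dpf, against 1.01 and 0.67 FPKM in controls. Its paralog *prickle1a* had 1.46 and 1.70 FPKM in mutants at 2 dpf, against 0.51 and 1.05 FPKM in controls, and 2.82 and 2.38 FPKM in mutants at 2.5 dpf, against 1.84 and 2.44 FPKM in controls. *daam1a*, a gene for a formin that binds Dishevelled, had 2.14 and 2.14 FPKM in mutants at 2 dpf, against 2.84 and 2.65 FPKM in controls, and 3.36 and 2.90 FPKM in mutants at 2.5 dpf, against 4.47 and 4.37 FPKM in controls. The genotypes were apart at each stage for *prickle3*, higher in mutants, and for *daam1a*, lower in mutants. Both controls of *prickle3* at 2 dpf were below the filter of 0.5 FPKM, so at that stage it was tested only through the mutants.

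Among the feedback targets they were *sp5l*, *tnfrsf19* and *tbx2b*. *sp5l*, a gene for a transcription factor induced by β-catenin, had 0.22 and 0.16 FPKM in mutants at 2 dpf, against 0.87 and 0.84 FPKM in controls, and 0.84 and 0.65 FPKM in mutants at 2.5 dpf, against 1.69 and 0.81 FPKM in controls. *tnfrsf19*, which encodes a receptor of the tumor necrosis factor family, had 3.6 and 2.43 FPKM in mutants at 2 dpf, against 1.76 and 1.04 FPKM in controls, and 3.27 and 3.35 FPKM in mutants at 2.5 dpf, against 4.02 and 2.35 FPKM in controls. *tbx2b*, a T-box factor gene, had 30.75 and 25.36 FPKM in mutants at 2 dpf, against 16.73 and 15.33 FPKM in controls, and 51.80 and 36.13 FPKM in mutants at 2.5 dpf, against 37.00 and 49.94 FPKM in controls. At 2 dpf the mutants were below the controls for *sp5l* and above them for the other two, and at 2.5 dpf the genotypes of all 3 overlapped. The mutant mean of *sp5l* was below the filter of 0.5 FPKM at 2 dpf and over both stages. In those fits it was tested only through its controls, which tied its direction to its entry.

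*axin2*, a common readout of β-catenin activity, had 3.47 and 2.87 FPKM in mutants at 2 dpf, against 1.83 and 2.37 FPKM in controls, and 2.97 and 4.68 FPKM in mutants at 2.5 dpf, against 2.28 and 3.80 FPKM in controls. *lef1*, a transcription factor of the same route, had 4.22 and 4.55 FPKM in mutants at 2 dpf, against 5.15 and 4.94 FPKM in controls, and 9.02 and 13.04 FPKM in mutants at 2.5 dpf, against 12.43 and 14.24 FPKM in controls. At 2 dpf the mutants lay above the controls for *axin2* and below them for *lef1*, and at 2.5 dpf the genotypes overlapped for both. *axin2* and *lef1* were picked as examples after their values were seen.

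**Figure D5:**
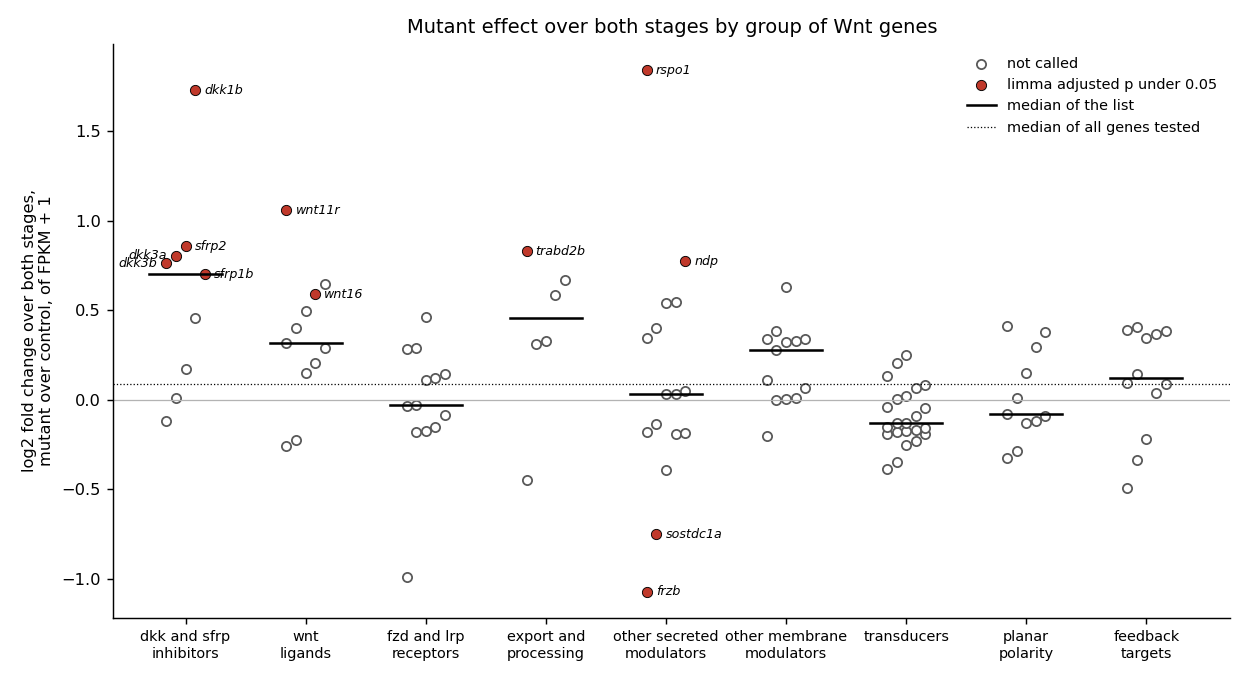
Log2 fold change over both stages, mutant over control, of FPKM + 1, for the 3 classes of Wnt genes and the 6 other pathway lists. Filled points have a limma adjusted p under 0.05, thick bars are list medians and the dotted line is the median of all genes, 0.09. The called genes are 5 inhibitors, 2 ligands, *trabd2b* and 4 secreted modulators, of which *frzb* and *sostdc1a* lie below 0.

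The targeted gene *slc30a1a* had 5.96 and 7.06 FPKM in mutants at 2 dpf, against 12.12 and 11.74 FPKM in controls, and 5.44 and 4.98 FPKM in mutants at 2.5 dpf, against 8.56 and 11.22 FPKM in controls. Its log2 fold change over both stages was -0.79 (limma adjusted p = 0.00754), and *slc30a1b* stayed between 0 and 0.14 FPKM in all 8 libraries. *sox10* itself ran between 47.59 and 156.01 FPKM in the 8 libraries, while the crest marker *crestin* was at most 0.51 FPKM. Markers of other cell types were present in every group, and no marker list had a gene at 0 in all libraries. Of the stages fitted alone, only 2 dpf had Wnt calls. At 2 dpf 10 red blood cell markers summed to 7962 and 10364 FPKM in mutants, against 32833 and 21386 FPKM in controls. Both mutants lay below both controls for 10 of 10, where 12.1% of all genes did so and 44.8% lay above. Lens markers summed to 18.2 and 61.2 FPKM in mutants, against 239 and 175 FPKM in controls, with 7 of 7 lower, and retina markers to 11.7 and 13.5 FPKM, against 120 and 62.8 FPKM in controls, with 3 of 6 lower. Neural progenitor markers were lower in both mutant libraries for 5 of 10, and muscle markers for 5 of 9. Otic markers summed to 68.4 and 51.0 FPKM in mutants, against 42.2 and 35.7 FPKM in controls, with 7 of 7 higher. In these counts *mipa* of the lens (0.07 and 0.17 FPKM in mutants) and *gnb3a* of the retina (0.03 and 0.38 FPKM) passed the filter only through the controls. The otic marker *oc90* passed only through the mutants (0.39 and 0.31 FPKM in controls). The direction of such genes was tied to their entry. Neural crest markers summed to 610 and 648 FPKM, against 398 and 632 FPKM in controls, with 6 of 9 higher and 1 lower. The largest of them was *twist1a*, at 270 and 279 FPKM in mutants against 127 and 226 FPKM in controls. At 2.5 dpf the retina markers were again lower, at 17.7 and 19.9 FPKM in mutants against 127 and 154 FPKM in controls. Both mutants lay below both controls for 8 of 10 neural progenitor markers and for no red blood cell marker, against 19.2% of all genes. Muscle markers summed to 119 and 265 FPKM in mutants at 2.5 dpf, against 89.0 and 84.4 FPKM in controls, with 6 of 8 higher in both mutants, against 24.3% of all genes. Otic markers summed to 107 and 103 FPKM in mutants at that stage, against 145 and 189 FPKM in controls. Of 7 otic markers 3 were lower and 1 higher in both mutants, against 19.2% and 24.3% of all genes. Neural crest markers at 2.5 dpf summed to 662 and 660 FPKM in mutants, against 559 and 762 FPKM in controls. Of 9 tested 3 were lower and 3 higher in both mutants. The part of these cell types in the Wnt values was not tested.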

How the data were processed

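Sorted *sox10*:kikGR+ cells were profiled by SMART-seq (oligo(dT)-primed cDNA, paired-end reads) in 8 libraries. Per the submitters' processing notes and the study's methods, the authors used HISAT for alignment to GRCz11 and StringTie for transcript assembly and quantification. The authors deposited FPKM values per gene in 1 table per stage. The authors' notes also name edgeR, and tool versions are not given in the sources used here. The deposited columns of fold changes and p-values from the authors' comparisons were not used. Whole reads could not be recovered from the FPKM values: the fullest bin of low-value ratios between 2 libraries held 1.53 to 2.18% of genes, so depth is unknown and no count test was run. Merging of transcripts can shift FPKM between paralogs and overlapping genes.

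Values were analyzed as log2(FPKM + 1) with limma 3.58.1 (empirical Bayes with a variance trend) in R 4.3.3 on genes whose mean over the fitted libraries reached 0.5 FPKM. P-values were adjusted by Benjamini-Hochberg over all genes tested, with a threshold of 0.05. Fold changes on this scale understate changes of low genes. Fits were made within 2 dpf, within 2.5 dpf, over both stages with stage as a term, and for the difference between stages. Genes were kept by identifier, and all 51 matched the reference names, 11 with the same symbol. Values of each library are given for genes called in any fit, for genes apart in the same direction at both stages and for the 12 highest genes. Pathway genes are given where called or among the 3 largest fold changes of a list over both stages, otherwise as examples. The fits were tested on simulated data with planted changes larger than those of most genes called here and no shift between libraries. That test gives no measure for smaller changes or for low genes. Alternatives were the pseudocount (0.1), the filter (none, or 2 FPKM), median-ratio rescaling, quantile normalization, no variance trend, a replicate block, all 8 libraries in 1 fit, and each library left out. The genes and lists were chosen with earlier results of these data known.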

Additional observations from a re-analysis of the deposited data

How the results depend on the processing

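The 3 calls at 2 dpf became 1 with no filter on low values and 1 with quantile normalization, and 0 to 1 with a library left out. The count of 0 at 2.5 dpf became 1, *dkk1b*, with all 8 libraries in 1 fit, and was 0 with any library left out. Over both stages 7 genes were called, 2 to 8 with a library left out and 5 to 8 otherwise. The difference between stages had 0 calls under every alternative. Calls over all genes moved as well. At 2 dpf they were 544 of 15453 as reported, 47 of 25884 with no filter and 236 of 15453 with quantile normalization. With all 8 libraries in 1 fit 15.3% of all genes had an unadjusted p under 0.05 at 2.5 dpf, against 12.2% as reported. Over both stages 9.01% of all genes were called as reported, and 25.7% had an unadjusted p under 0.05. Under the alternatives that kept all 8 libraries, the latter share ran from 21.7% with no filter to 28.5% with the replicate block. Totals over all genes with a library left out are not given here for that fit. The median log2 fold change at 2 dpf, 0.47, was 0.10 with no filter, 0.25 with median-ratio rescaling, 0.30 with quantile normalization and 0.38 to 0.46 with a library left out. At 2.5 dpf leaving out a library gave -0.12 to 0.36, the negative value without control replicate 1, and over both stages 0.15 to 0.40. The 10 genes higher in all libraries of 2.5 dpf became 3 with rescaling and 10 to 13 with a library left out. The cause of these shifts was not tested.

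Replicate numbers are shared between groups, but nothing in the labels ties libraries of the same number. Deviations of same-numbered libraries correlated at 0.144 at 2 dpf and 0.371 at 2.5 dpf, with 2 pairs each. With the replicate number as a block, the calls were 3 at 2 dpf, 1 at 2.5 dpf (*dkk1b*) and 8 over both stages, where *wnt2bb* and *wnt9a* were gained and *sfrp2* was lost. At 2 dpf 830 of 15453 genes in all were called with this block, against 544 without it. The share of all genes with an unadjusted p under 0.05 rose from 12.2 to 18.8% at 2.5 dpf and from 25.7 to 28.5% over both stages. With 2 libraries per group and unknown depth, differences in low genes such as *wnt16* rest on few values.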
